A study of Mus musculus with 4 samples.

Results

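The unfolded protein response genes described here are Hspa5, Hsp90b1, Sdf2l1, Creld2, Dnajb9, Herpud1, Xbp1, Atf4, Ddit3 and Trib3. They were taken by symbol from the deposited expression tables, as a set chosen with earlier results of these data known, and 10 of 10 were found among 24346 gene symbols. Liver RNA was sequenced from male ob/ob mice, a strain that lacks functional leptin and becomes obese, after 4 weeks on 1 of 4 diets that began at 6 weeks of age. The groups were CD (regular chow with 1% cholesterol), CD+7KC (CD with 0.01% 7-ketocholesterol, an oxidized form of cholesterol), WD (a western type, high fat diet with the same 1% cholesterol) and WD+7KC (WD with 0.01% 7-ketocholesterol). Cholesterol was therefore added to the food of every group, including the controls, and every mouse lacked leptin. Each group had 1 library, the number of mice behind a library is not given in the sources used here, and none of the differences below has a replicate check, a p-value or an estimate of the variation between mice.

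The endoplasmic reticulum (ER) of the hepatocyte folds the large amounts of protein that the liver secretes into blood. When unfolded protein accumulates there, the sensors IRE1 (Ern1), PERK (Eif2ak3) and ATF6 start the unfolded protein response. ATF6 and the spliced form of XBP1 raise chaperones and degradation factors, while PERK slows translation and favours synthesis of the transcription factor ATF4, which acts on Ddit3 and Trib3. The pathway is known to respond in fatty liver to lipid load as well as to protein load.

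The response reaches its chaperone genes through short promoter elements, and the sequences are shown because they separate the members into classes without use of the expression values. The ER stress response element (ERSE) was searched as CCAAT and CCACG with 9 bases of any kind between them, and the related ERSE-II as ATTGG and CCACG with 1 base between them, on both strands of RefSeq promoter windows that run from 250 bases before to 50 bases after a start site (GRCm38.p6). Windows were found for 10 of the 10 members. ERSE was present in the windows of Hspa5, Hsp90b1 and Creld2, against 0.119% of 32851 windows in all, and ERSE-II in that of Herpud1, against 0.0365% of all windows. In the lines below the capitals mark ERSE in the first 3 stretches, and ERSE-II and the core of the C/EBP-ATF response element (CARE, bound by ATF4, searched as TGATGNAA) in the last.
Hspa5, chr2:34772020-34772049, plus strand: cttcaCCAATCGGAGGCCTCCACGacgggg
Hsp90b1, chr10:86705525-86705664, minus strand: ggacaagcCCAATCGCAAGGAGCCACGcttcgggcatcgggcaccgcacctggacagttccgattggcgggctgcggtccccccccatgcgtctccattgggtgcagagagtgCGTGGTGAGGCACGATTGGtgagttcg
Creld2, chr15:88819496-88819595, plus strand: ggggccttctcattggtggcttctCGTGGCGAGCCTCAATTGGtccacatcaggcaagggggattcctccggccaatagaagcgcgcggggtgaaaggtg
Herpud1, chr8:94386299-94386408, plus strand: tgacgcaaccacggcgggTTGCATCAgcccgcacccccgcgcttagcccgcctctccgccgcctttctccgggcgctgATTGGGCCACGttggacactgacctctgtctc
Hsp90b1 held 2 ERSE matches, the one farther from the start in the direction of the gene and the other on the opposite strand, and the match in Creld2 was also on the opposite strand. The CARE core was found in 2 members, Herpud1 and Trib3, on the strand opposite to the gene in each, and in 3.97% of all windows. The core of the unfolded protein response element bound by XBP1, searched as TGACGTGG, was in none of the 10 windows and in 0.676% of all windows. Both ERSE forms contain the box CCAAT and the element CCACG, which were present singly in 8 and 7 members and in 37.4% and 32.8% of all windows. A match says only that these letters are in the window, and for the members without one, only that they are not.

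**Figure D1:**
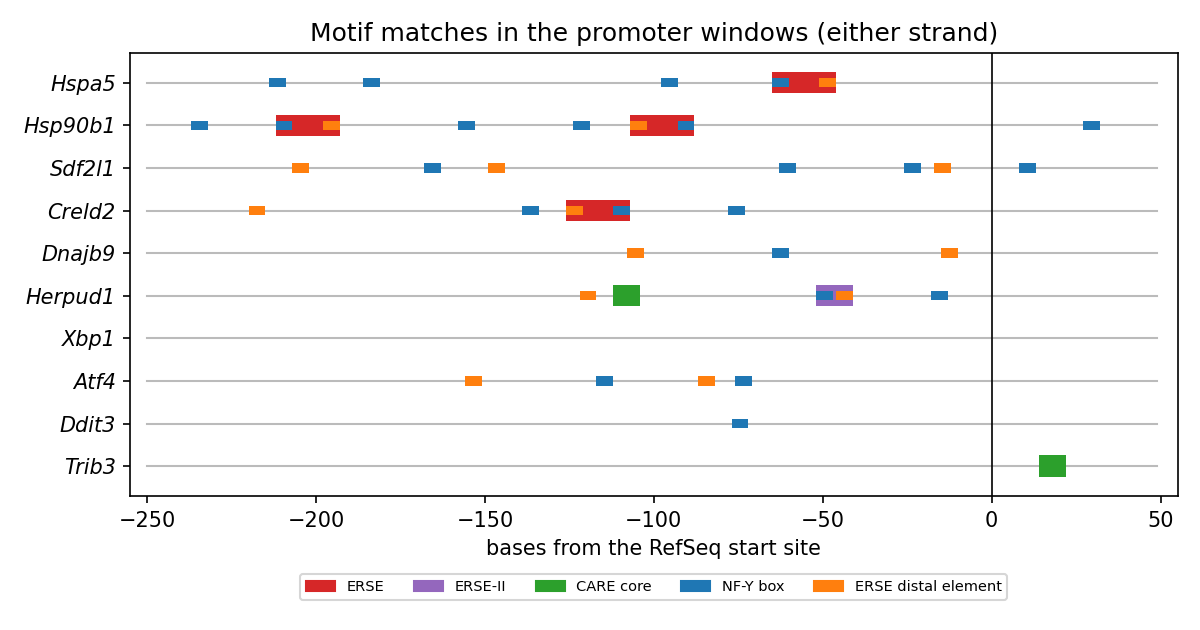
Positions of motif matches on either strand in the promoter windows of the 10 genes, with the distance from the RefSeq start site in bases on the x axis; wide red bars are ERSE, purple ERSE-II, green the CARE core, and small blue and orange bars the NF-Y box (CCAAT) and the distal ERSE element (CCACG). Complete ERSE elements are seen in Hspa5, Hsp90b1 and Creld2, and the window of Xbp1 holds no match.

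Levels are given as FPKM, which divides the fragments of a gene by its length and by the depth of the library and so allows levels of different genes to be compared. The FPKM sum was 602059 in WD+7KC and from 696062 to 715605 in the other libraries. Because of this, rescaling to equal sums (TPM) moved the median over all genes, compared as WD+7KC against WD, from 0.002 to 0.21 on the log2 scale, so that the values of the members are given with both scalings, and list medians and single genes in WD+7KC relative to WD likewise. Among genes that averaged 1 FPKM or more, 45.4% were higher in WD+7KC than in WD with the deposited values and 76.2% after rescaling, which is the background for every count of higher and lower genes in that comparison. The same shares were 48.2% and 55.6% in CD+7KC relative to CD, and 49.2% and 52.7% in WD relative to CD. In WD+7KC relative to CD+7KC they were 47.3% and 69.2%. Fold changes are log2 ratios of FPKM + 0.1, and 95% intervals are exact (Clopper-Pearson) intervals on estimated reads that cover counting error only. From the steps between low FPKM values the libraries were estimated to hold 9400000 to 12100000 fragments. This placed 5359 to 7611 reads on Hspa5 in each library, 137 to 259 on Sdf2l1 and 76.8 to 145 on Ddit3. Precision therefore differs among the members, also among the chaperones and folding factors. The liver label was met by the 8 hepatocyte markers, whose levels summed to between 42409 FPKM in WD+7KC and 53589 in WD, with albumin the highest gene of each library. With 7KC 7 of the 8 were lower under each diet, with medians of -0.23 under WD (-0.014 rescaled, with 4 lower) and -0.18 under CD (-0.14 rescaled). Markers of other cells moved between the libraries: 12 macrophage and Kupffer cell genes summed to 201 FPKM under CD, 329 under CD+7KC, 376 under WD and 713 under WD+7KC, and 6 sinusoidal endothelial genes to 56.7, 82.9, 44.9 and 126 FPKM. In WD+7KC relative to WD, 12 of 12 macrophage markers and 6 of 6 endothelial markers were higher. The part of these cells in the results below was not tested, and in whole liver a change in the share of a cell type and a change of RNA per cell cannot be told apart. B cell and plasma cell markers, which belong to a cell type rich in ER, summed to between 3.76 and 6.06 FPKM over 9 symbols, and Tnfrsf17 was at 0 in the 4 libraries. T cell markers summed to between 1.03 and 3.54 FPKM over 6 symbols. The sums were 139 to 174 FPKM for 6 stellate cell genes, 46.4 to 186 for 5 cholangiocyte genes (of which Spp1 alone gave 43.7 to 183), 106 to 304 for 5 adipocyte genes (mostly Fabp4, at 66.5 to 143, and Cfd, at 0.115 to 219.99, with Plin1 and Lep at 0) and 5.73 to 15.2 for 6 pancreatic acinar genes (Cpa1, Prss2, Pnlip and Amy2a5 at 0).

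By mean level the members formed 4 steps. Herpud1, Hsp90b1 and Hspa5 were at the top with means of 269, 254 and 250.2 FPKM, followed by Xbp1 (66.1) and Atf4 (60.9), then Creld2 (27.6), Dnajb9 (26.2), Sdf2l1 (18.1) and Ddit3 (13.2), and last Trib3 (6.87). The ranges of neighbours overlapped within each step, and did not overlap between Hspa5 and Xbp1, between Atf4 and Creld2 or between Ddit3 and Trib3. The ratio of the highest to the lowest library was 1.10 for Hspa5 and 1.12 for Hsp90b1, the smallest in the group, and 1.86 for Herpud1, the largest. None of the 10 genes therefore differed by 2-fold between any pair of libraries with the deposited values.

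**Figure D2:**
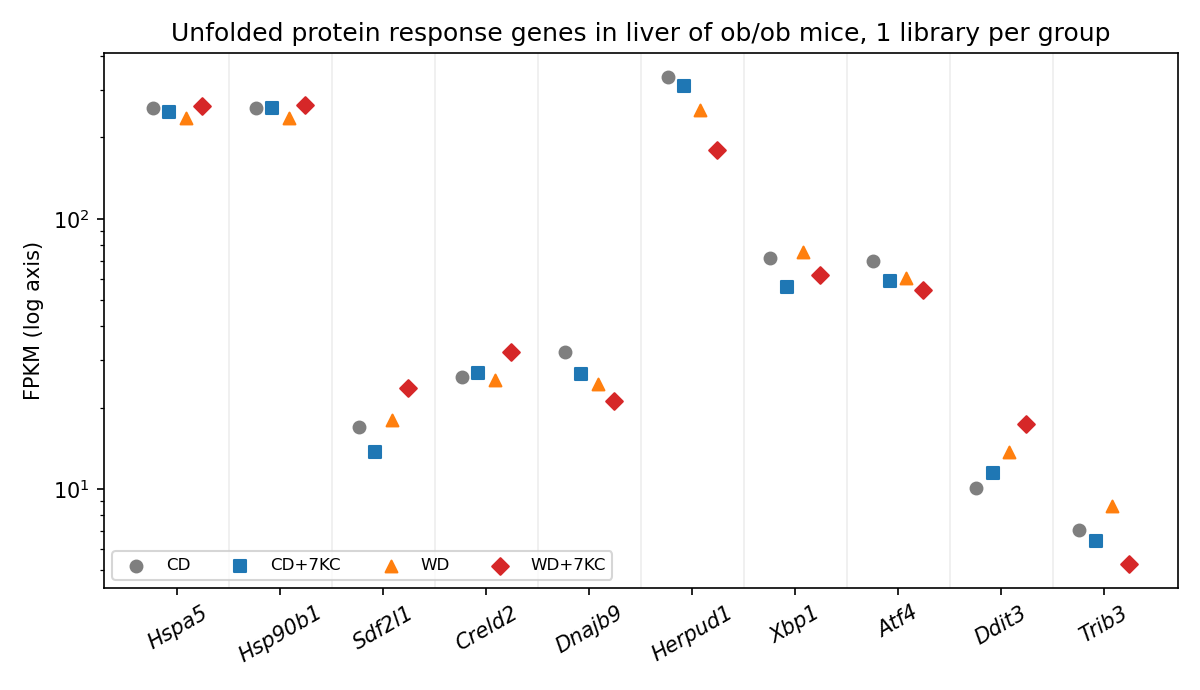
FPKM of each gene on a log axis in the libraries CD (grey circles), CD+7KC (blue squares), WD (orange triangles) and WD+7KC (red diamonds), each point being 1 library. Hspa5 and Hsp90b1 lie on a nearly level line between 236 and 264 FPKM, while Herpud1 is lowest in WD+7KC at 179 FPKM and Ddit3 is highest there at 17.4 FPKM.

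The effect of 7KC under WD was examined first. No member was above or below the 2-fold threshold in WD+7KC relative to WD (log2 fold change above 1 or below -1), where 6.21% of 15753 genes were above and 2.79% below it. The median log2 fold change of the members was 0.002, with 5 higher and 5 lower, beside 0.002 over all genes. After rescaling it was 0.22, with 7 higher and 3 lower, beside 0.21 over all genes, so the group as a whole stood where the rest of the genes did. Within the group the genes lay on both sides. The ER chaperones and folding factors Hspa5, Hsp90b1, Sdf2l1 and Creld2 were higher in WD+7KC with intervals above 0, and so was Ddit3, with an interval that included 0. Herpud1, Dnajb9, Xbp1, Atf4 and Trib3 were lower with intervals below 0, although for Dnajb9 and Atf4 the sign turned after rescaling to equal sums, and for Atf4 also after rescaling without the 20 highest genes. At a threshold of 1.5-fold, Trib3 was the only member called in WD+7KC relative to WD, as lower. After rescaling Trib3 was no longer past it (-0.49) and Sdf2l1 was, as higher (0.60). With the deposited values 6.86% of all genes were lower and 14.2% higher by this threshold. Of genes that averaged 1 FPKM or more, as each member did, 3.04% were lower and 7.5% higher. These shares were not computed after rescaling, so none stands beside the rescaled value of Sdf2l1.

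Under CD the picture was lower or near level. In CD+7KC relative to CD no member was past 2-fold (3.84% of 15684 genes above and 2.91% below) or past 1.5-fold (10.4% above and 7.11% below, or 4.4% and 3.05% of genes that averaged 1 FPKM or more). The median log2 fold change of the members was -0.12, with 3 higher and 7 lower, beside -0.001 over all genes, and it was -0.081 beside 0.035 after rescaling. Of genes that averaged 1 FPKM or more, 48.2% were higher with the deposited values and 55.6% after rescaling. Intervals lay below 0 for Dnajb9, Herpud1, Xbp1 and Atf4 and included 0 for the other 6, and the same counts held after rescaling.

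**Figure D3:**
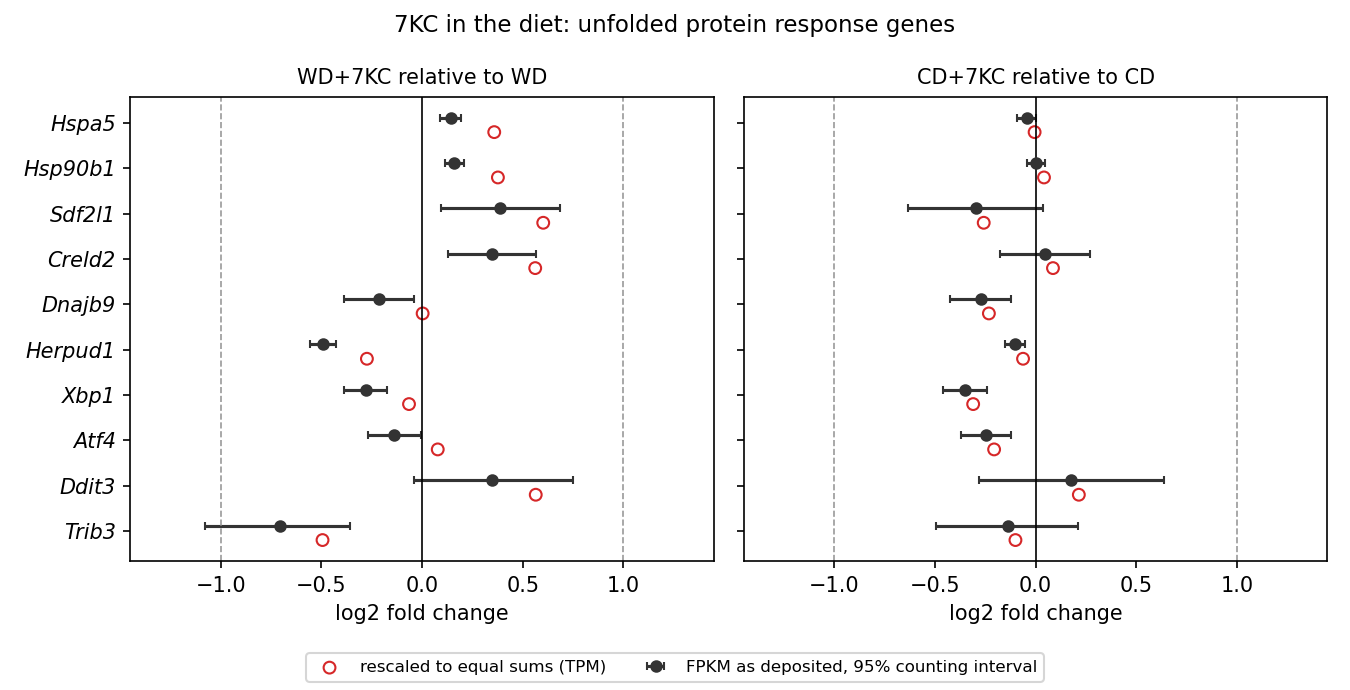
Log2 fold change of each gene with 7KC under WD (left) and under CD (right); black points with bars are the deposited values with 95% counting intervals from 1 library per group, red open circles the values after rescaling to equal sums, and dashed lines mark 2-fold. Under WD Hspa5, Hsp90b1, Sdf2l1 and Creld2 lie right of 0 and Herpud1, Xbp1 and Trib3 left of 0 with both scalings, and under CD no black point passes -0.35 on the left or 0.17 on the right.

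Hspa5 (chromosome 2, 34771970 to 34777547, GRCm38) encodes BiP, the main ER chaperone, which also holds the sensors inactive. It was at 256 FPKM under CD, 248 under CD+7KC, 236 under WD and 261 under WD+7KC. The highest and lowest libraries were thus both from WD-fed mice, and the log2 fold change with 7KC was 0.14 under WD (95% counting interval 0.091 to 0.19; 0.36 rescaled) and -0.045 under CD (-0.094 to 0.004; -0.005 rescaled). Hsp90b1 (chromosome 10, 86690209 to 86705509) encodes GRP94, the HSP90 paralogue of the ER, and the pseudogene 1810014B01Rik, at 1.09 to 2.01 FPKM, overlaps it on the opposite strand. It was at 257 FPKM under CD, 257 under CD+7KC, 236 under WD and 264 under WD+7KC, a log2 difference of 0.16 (0.11 to 0.21; 0.38 rescaled) under WD and 0.002 (-0.045 to 0.048; 0.041 rescaled) under CD. The ratio of Hsp90b1 to Hspa5 within a library, which no scaling can alter, stayed between 1.0 and 1.04.

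Among 10685 other genes that averaged 1 FPKM or more, Hsp90b1 was the 24th nearest to Hspa5 by Euclidean distance of centred log2 values over the 4 libraries. The nearest 3 were Ctnnd1 (distance 0.009), Hdgfrp2 (0.011) and Frat1 (0.017). Because Hspa5 was nearly level, 221 genes lay within 0.1 of it, and the likeness is over 4 values only.

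Creld2 (chromosome 15, 88819646 to 88826683), an ER-resident folding factor with ERSE in its window like the preceding pair, was at 26.0 FPKM under CD, 26.9 under CD+7KC, 25.2 under WD and 32.1 under WD+7KC. WD+7KC stood above the other 3 libraries, which lay close together. The log2 fold change was 0.35 under WD (0.13 to 0.57; 0.56 rescaled) and 0.046 under CD (-0.17 to 0.27; 0.086 rescaled). Sdf2l1 (chromosome 16, 17130138 to 17132383), which encodes a partner of the BiP folding cycle, was at 16.9 FPKM under CD, 13.7 under CD+7KC, 18.0 under WD and 23.6 under WD+7KC. It was lower with 7KC under CD (-0.30, -0.63 to 0.034; -0.26 rescaled) and higher under WD (0.39, 0.094 to 0.68; 0.60 rescaled, which is past 1.5-fold). Relative to Hspa5 in the same library it was 0.066, 0.055, 0.076 and 0.090 in CD, CD+7KC, WD and WD+7KC.

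Dnajb9 (chromosome 12, 44205559 to 44210326) encodes ERdj4, a co-chaperone that directs BiP to misfolded proteins and to IRE1. It was at 32.3 FPKM under CD, 26.7 under CD+7KC, 24.5 under WD and 21.2 under WD+7KC, so that CD without 7KC was highest and WD+7KC lowest. The log2 fold change with 7KC was -0.27 under CD (-0.42 to -0.12; -0.23 rescaled) and -0.21 under WD (-0.39 to -0.040), the latter becoming 0.003 after rescaling.

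Herpud1 (chromosome 8, 94386438 to 94395377) encodes HERP, a membrane protein of the ER degradation complex, and its window held ERSE-II and a CARE core. It had the highest level of the 10 genes in CD, at 334 FPKM, and stood at 311 FPKM with CD+7KC, 252 with WD and 179 with WD+7KC. Both libraries of the western diet were thus below both libraries of the control diet, and within each diet the library with 7KC was the lower. With 7KC the log2 fold change was -0.49 under WD (-0.55 to -0.43) and -0.10 under CD (-0.15 to -0.052), or -0.27 and -0.063 after rescaling, with intervals below 0 in each case. Herpud1 and the chaperones parted within the libraries: the ratio of Herpud1 to Hspa5 was 1.30 under CD, 1.25 under CD+7KC, 1.06 under WD and 0.687 under WD+7KC.

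The transcription factors followed. Xbp1 (chromosome 11, 5520659 to 5525893) encodes the factor whose mRNA IRE1 splices, and the tables give 1 value for the gene, so spliced and unspliced forms were not separated. It was at 71.3 FPKM under CD, 55.9 under CD+7KC, 75.3 under WD and 61.9 under WD+7KC. The libraries with 7KC were below those without it, with log2 fold changes of -0.35 under CD (-0.46 to -0.24; -0.31 rescaled) and -0.28 under WD (-0.39 to -0.17), the latter being -0.065 after rescaling with an interval that included 0. Atf4 (chromosome 15, 80255184 to 80257541), whose product is controlled mainly by translation, was at 69.7 FPKM under CD, 58.8 under CD+7KC, 60.2 under WD and 54.7 under WD+7KC. CD was highest, with a log2 fold change with 7KC of -0.25 under CD (-0.37 to -0.12; -0.21 rescaled) and of -0.14 under WD (-0.27 to -0.006), which became 0.078 after rescaling.

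Ddit3 (chromosome 10, 127290774 to 127296288) encodes CHOP, the factor linked to cell death under prolonged ER stress. The gene Mars, at 19.6 to 22.3 FPKM, overlaps its 3′ end on the opposite strand, and whether counting used strand is not given in the sources used here. Ddit3 was at 10.1 FPKM under CD, 11.4 under CD+7KC, 13.7 under WD and 17.4 under WD+7KC. The western diet libraries were above the control diet libraries, and within each diet the library with 7KC was the higher, but the intervals with 7KC included 0 under WD (0.35, -0.041 to 0.75) and under CD (0.17, -0.28 to 0.64), so that at this depth no difference could be detected from the deposited values. After rescaling, the value under WD was 0.56 (0.18 to 0.96). The genes nearest to Ddit3 among the 10685 were Agap1 (distance 0.033), Gbp7 (0.046) and Rps6ka4 (0.058), over 4 values only.

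Trib3 (chromosome 2, 152337422 to 152344032), a pseudokinase gene that ATF4 and CHOP are known to raise, was at 7.08 FPKM under CD, 6.42 under CD+7KC, 8.69 under WD and 5.29 under WD+7KC. WD was highest and WD+7KC lowest, a log2 difference of -0.71 (-1.08 to -0.36) or -0.49 (-0.87 to -0.15) after rescaling, the latter short of 1.5-fold, and of -0.14 under CD (-0.50 to 0.21; -0.10 rescaled). Its ratio to Ddit3 within a library was 0.700 under CD, 0.562 under CD+7KC, 0.636 under WD and 0.304 under WD+7KC, so these ATF4-linked genes stood farthest apart in WD+7KC. The ratio of Ddit3 to Atf4 was 0.145 under CD, 0.194 under CD+7KC, 0.227 under WD and 0.318 under WD+7KC.

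The effect of the western diet itself was compared next, without 7KC and with it. These comparisons share libraries with those above, so their values are given only side by side. In WD relative to CD no member was past 2-fold (5.31% of 15597 genes above and 4.38% below), or past 1.5-fold (13.5% above and 10.8% below, or 8.59% and 6.94% of genes that averaged 1 FPKM or more). The median of the members was -0.079, with 4 higher and 6 lower, beside 0.010 over all genes (-0.047 beside 0.041 rescaled). In WD+7KC relative to CD+7KC no member was past 2-fold (8.01% of 15898 genes above and 4.61% below), and the median was 0.055, with 6 higher and 4 lower, beside 0.003 over all genes (0.26 beside 0.20 rescaled). At 1.5-fold, 2 members were higher with the western diet in the presence of 7KC, Sdf2l1 and Ddit3, and 1 was lower, Herpud1. Of all genes 17.5% were higher and 11.4% lower by this threshold, and of genes that averaged 1 FPKM or more 11.8% were higher and 8.33% lower. With 10 members, counts of 2 and 1 are close to these shares.

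Among the single genes, Herpud1 had log2 fold changes of -0.41 (-0.46 to -0.35) in WD relative to CD and -0.80 (-0.85 to -0.74) in WD+7KC relative to CD+7KC, or -0.37 and -0.59 rescaled. Dnajb9 had -0.39 (-0.56 to -0.23) and -0.33 (-0.50 to -0.17), or -0.36 and -0.13 rescaled. Ddit3 had 0.43 (-0.023 to 0.89) and 0.60 (0.22 to 1.01), or 0.46 and 0.81 rescaled. Sdf2l1 had 0.092 (-0.23 to 0.42) and 0.77 (0.47 to 1.09), or 0.12 and 0.98 rescaled. The degradation factor and the BiP co-chaperone were thus lower, and the CHOP gene higher, on the western diet in both comparisons, although the interval of Ddit3 in WD relative to CD included 0, as did the rescaled interval of Dnajb9 in WD+7KC relative to CD+7KC. Hspa5 had -0.12 and 0.071 (-0.083 and 0.28 rescaled), and Hsp90b1 -0.12 and 0.039 (-0.087 and 0.25 rescaled). Xbp1 had 0.077 and 0.15 (0.11 and 0.36 rescaled), Creld2 -0.043 and 0.26 (-0.011 and 0.46 rescaled) and Trib3 0.29 and -0.27 (0.33 and -0.069 rescaled). Atf4 had -0.21 and -0.10, the latter becoming 0.11 after rescaling and turning sign also without the 20 highest genes.

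**Figure D4:**
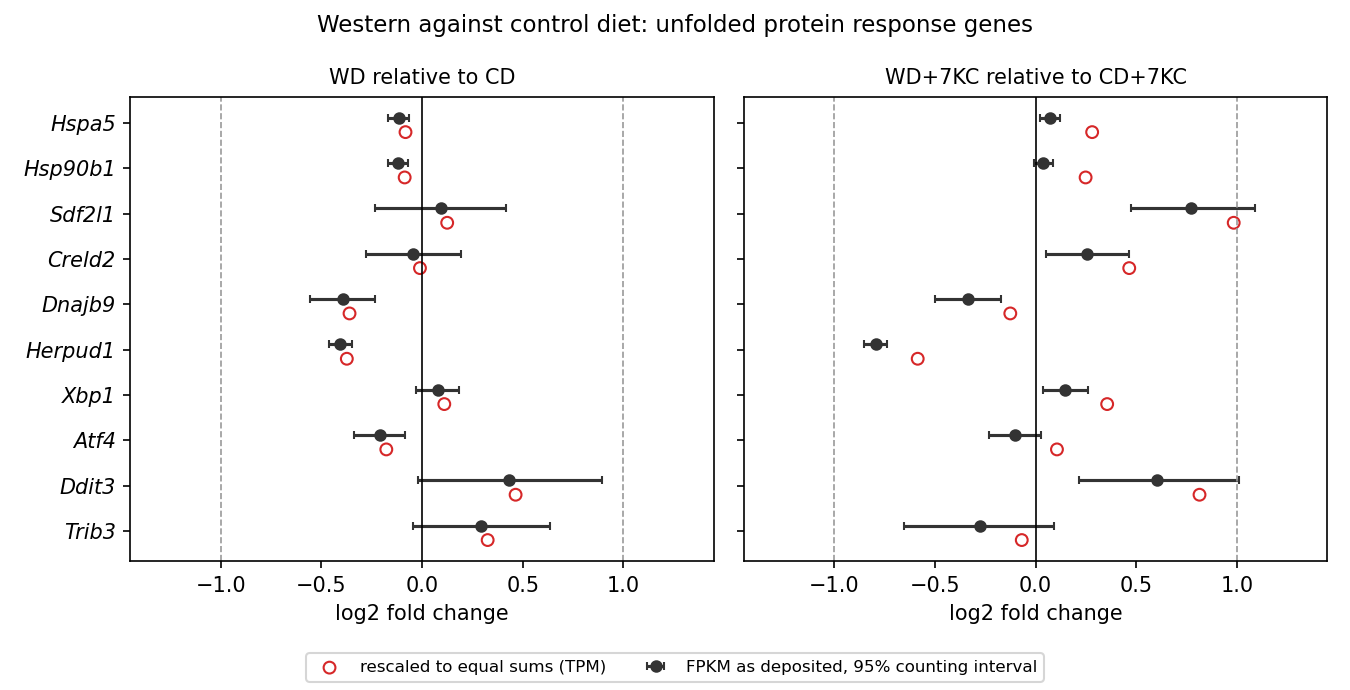
Log2 fold change of each gene between the western and the control diet without 7KC (left) and with 7KC (right), with black points and 95% counting intervals for the deposited values from 1 library per group and red open circles for values rescaled to equal sums; dashed lines mark 2-fold. Herpud1 lies left of 0 in both panels at -0.41 and -0.80, and Sdf2l1 lies at 0.092 on the left and 0.77 on the right.

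Other genes of the pathway were examined as lists, and the highest and lowest genes named for a list are those among its genes that averaged 1 FPKM or more. The sensor list held 9 genes, which are sensors, ER membrane transcription factors and proteases that process them. It had a median log2 fold change of 0.014 (0.23 rescaled) with 7KC under WD, where 5 were higher, 4 lower and 0 past 2-fold (9 higher after rescaling). Under CD the median was -0.052, where 3 were higher, 6 lower and 0 past 2-fold. The largest value under WD was 0.48 for Creb3l2 (0.70 rescaled) and the smallest -0.18 for Creb3l3, a hepatocyte factor of the CREB3 family, which was at 155 FPKM in WD and 137 in WD+7KC and at 0.035 after rescaling. Eif2ak3, which encodes PERK, was at 6.99 FPKM under CD, 4.55 under CD+7KC, 5.77 under WD and 6.53 under WD+7KC, the lowest value of the list under CD (-0.61), and Atf6b had the highest there (0.12). Ern1, which encodes IRE1 and was picked out after its values were seen, was at 5.60 FPKM under CD, 5.73 under CD+7KC, 2.99 under WD and 2.96 under WD+7KC.

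ER chaperones and folding enzymes outside the 10 members had 23 of 24 symbols in the tables. In WD+7KC relative to WD 13 were higher and 10 lower, with 0 past 2-fold and a median of 0.041. After rescaling the median was 0.26, with 21 higher and 2 lower, where 76.2% of genes at 1 FPKM or more were higher. In CD+7KC relative to CD 8 were higher and 15 lower, and the median was -0.065 (-0.025 rescaled). The range under WD ran from -0.32 for Cnpy2 (-0.10 rescaled) to 0.52 (0.74 rescaled) for Fkbp14, a collagen-folding isomerase of the ER at 1.77 FPKM in WD and 2.59 in WD+7KC. Under CD it ran from -0.19 for Calr, the lectin chaperone calreticulin at 363 FPKM in CD and 319 in CD+7KC, to 0.30 for Manf, a secreted ER stress protein at 29.4 and 36.2 FPKM. For the 19 genes of ER-associated degradation the medians were -0.054 under WD (4 higher and 15 lower, where 45.4% of genes at 1 FPKM or more were higher, or 0.16 with 17 higher and 2 lower after rescaling, where 76.2% were higher) and -0.093 under CD (4 higher and 15 lower). None was past 2-fold with 7KC. Derl3, a derlin that also stands in the plasma cell marker list, had the highest value under WD, with 1.53 FPKM under CD, 1.44 under CD+7KC, 1.96 under WD and 3.12 under WD+7KC (0.64, or 0.86 rescaled), and Erlec1 the lowest (-0.31, or -0.10 rescaled). Under CD the extremes were the mannosidase-like genes Edem1 (0.22) and Edem3 (-0.48). The 21 genes of ER translocation and transport had medians of -0.13 under WD (0.085 rescaled) and -0.057 under CD, with 0 past 2-fold. Under WD they ran from Sec61g (-0.44, or -0.23 rescaled) to Srp19 (0.29, or 0.51), and under CD from Kdelr2 (-0.27) to Sec23b (0.15).

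A wider spread was seen among the 28 targets of the PERK-eIF2α-ATF4 arm. In CD+7KC relative to CD 4 were below -1, where 2.91% of all genes were, and 0 above 1, with a median of -0.047 (-0.007 rescaled), and in WD+7KC relative to WD 0 were past 2-fold with the deposited values, with 16 higher, 12 lower and a median of 0.068 (0.28 rescaled). Chac1, a glutathione-degrading enzyme induced by ATF4, was at 8.91 FPKM under CD, 2.05 under CD+7KC, 3.48 under WD and 2.53 under WD+7KC, so CD stood apart from the other 3. Asns, Psat1 and Stc2 were the others below -1 in CD+7KC, each under 1 FPKM in both libraries of that comparison. Psat1, a serine synthesis enzyme, was at 0.646 and 0.230 FPKM in CD and CD+7KC and at 2.25 and 1.92 in WD and WD+7KC, and Asns, the asparagine synthetase gene, was at 0.632 FPKM under CD, 0.0525 under CD+7KC, 0.735 under WD and 1.001 under WD+7KC. Gdf15, a stress hormone, had the highest deposited value under WD (0.96, or 1.17 and past 2-fold after rescaling), with 33.9 FPKM under CD, 43.3 under CD+7KC, 15.3 under WD and 29.7 under WD+7KC, and Ddit4 the lowest (-0.52, or -0.31 rescaled). Atf3 (0.95, or 1.17 rescaled) and Mthfd2 (0.83, or 1.06 rescaled) also passed 2-fold after rescaling, when 23 of the 28 genes were higher and 5 lower. Vldlr had the highest value under CD (0.43).

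**Figure D5:**
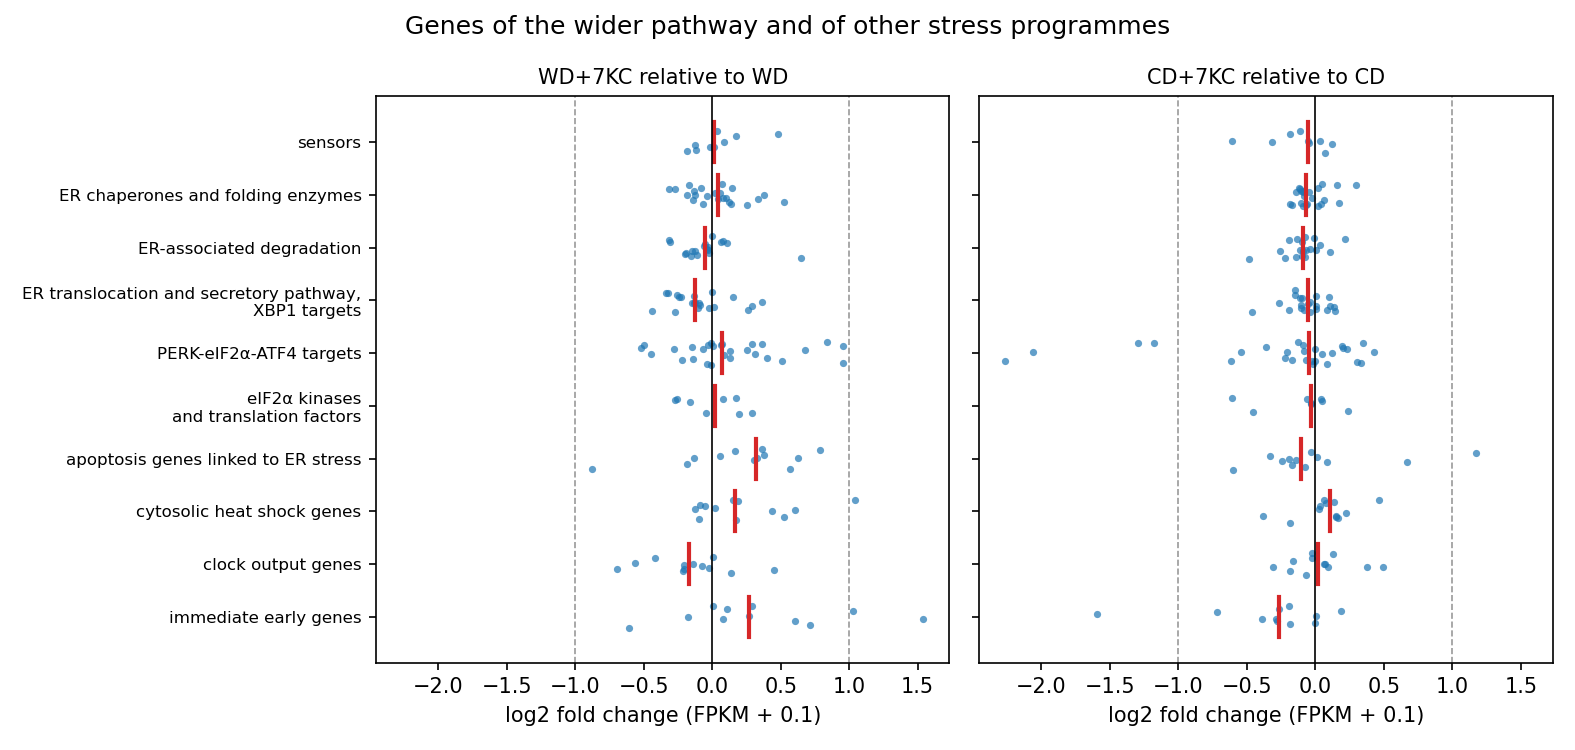
Log2 fold changes (FPKM + 0.1, deposited values) with 7KC under WD (left) and under CD (right) for the genes of each list, 1 blue point per gene and a red bar at the list's median, with dashed lines at 2-fold. The folding, degradation and translocation lists cluster near 0. The PERK-eIF2α-ATF4 list reaches -2.26 under CD at Asns, a gene near the floor (0.632 FPKM in CD and 0.0525 in CD+7KC).

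The remaining lists stood as follows. They are not all separate from the ER lists: the eIF2α kinase list shares Eif2ak3 with the sensors, and the apoptosis list shares a folding enzyme. The 8 eIF2α kinases and translation factors had medians of 0.018 under WD and -0.031 under CD (0.23 and 0.008 rescaled), with 0 past 2-fold, and ranged under WD from -0.28 for Eif2ak1 to 0.29 for Impact (-0.060 and 0.51 rescaled), and had their extremes under CD at Eif2ak3 (-0.61) and Eif2b1 (0.24). The 12 apoptosis genes linked to ER stress had medians of 0.32 under WD (9 higher and 3 lower, or 0.53 with 11 higher and 1 lower after rescaling, beside all-gene medians of 0.002 and 0.21) and -0.11 under CD (4 higher and 8 lower), with 0 and 1 above 2-fold, where 6.21% and 3.84% of all genes were. The 1 was Tnfrsf10b, at 0.335 FPKM in CD and 0.881 in CD+7KC, and 8 of the 12 genes averaged 1 FPKM or more. The list was not split by the effect of each gene on cell death, so its median gives no direction for it. Trib1 was highest (0.63, or 0.84 rescaled) and Bax lowest (-0.19, or 0.029 rescaled) under WD, while Bcl2l11 was highest (0.083) and Trib1 lowest (-0.25) under CD. The 12 cytosolic heat shock genes had medians of 0.16 under WD (0.38 rescaled) and 0.11 under CD, and Hsph1 was highest of those under both diets (0.60, or 0.82 rescaled, and 0.22), while Hspe1 (-0.12, or 0.092 rescaled) and Hspa1b (-0.38) were lowest. Of these genes 1 was above 2-fold under WD, where 6.21% of all genes were, and 0 under CD, the 1 being Hspa1a at 0.0407 FPKM in WD and 0.190 in WD+7KC. The 12 clock genes, which can mark the time of sampling, had medians of -0.17 under WD (0.038 rescaled) and 0.019 under CD, with Ciart at -0.69 and Per2 at 0.45 under WD (-0.48 and 0.67 rescaled), and Per2 at 0.49 and Nr1d1 at -0.31 under CD. The 11 immediate early genes had medians of 0.27 under WD (0.49 rescaled), with 2 above 2-fold where 6.21% of all genes were, and -0.27 under CD, with 1 below -1 where 2.91% of all genes were. Their extremes were Ier3 (1.54, or 1.78 rescaled) and Zfp36 (-0.61, or -0.39) under WD and Fos (0.18) and Ier3 (-1.59) under CD. In WD relative to CD 11 of 11 were lower, where 49.2% of genes that averaged 1 FPKM or more were higher. The part of sampling time or handling in the member values was not tested.

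The promoter classes were last set beside the values. The 3 members with ERSE, Hspa5, Hsp90b1 and Creld2, were higher in WD+7KC than in WD with both scalings, and the member with ERSE-II, Herpud1, was lower with both. Sdf2l1, also higher, had no complete element in its window. In WD relative to CD the 3 ERSE members were at -0.12, -0.12 and -0.043, and Herpud1 at -0.41. In CD+7KC relative to CD they were at -0.045, 0.002 and 0.046, with intervals that included 0, and Herpud1 at -0.10. In WD+7KC relative to CD+7KC they were at 0.071, 0.039 and 0.26, and Herpud1 at -0.80. Outside the members, 12 genes that averaged 1 FPKM or more had ERSE in their windows, 6 of them in the lists above (Calr, Canx, Dnajc3, Pdia6, Derl3 and Syvn1). In WD+7KC relative to WD 9 of the 12 were higher and 3 lower, where 45.4% of 10666 genes at that level were higher, with a median of 0.059 beside -0.031 (0.28 beside 0.18 rescaled). In CD+7KC relative to CD 6 were higher and 6 lower, and the median was -0.017 beside -0.005 (0.023 beside 0.033 rescaled). In WD+7KC relative to CD+7KC 5 were higher and 7 lower, where 47.3% of genes at that level were higher, and the median was -0.071 beside -0.025 (0.14 beside 0.18 rescaled), and in WD relative to CD 6 were higher and 6 lower. Of 225 such genes with the CARE core, 113 were higher and 112 lower in WD+7KC relative to WD (175 higher after rescaling). The 7 such genes with ERSE-II had medians of -0.011 under WD (0.21 rescaled) and 0.059 under CD. The differences between these medians and those of all genes were small, and they describe 1 library per group.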

How the data were processed

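Livers of ob/ob mice gave 4 libraries, 1 per group, grouped by their titles. Per the labels and the methods, the authors prepared stranded mRNA libraries, sequenced 75-base single-end reads, mapped them to mm10 with TopHat2 2.0.13, Bowtie2 2.2.3 and SAMtools 0.1.19 and deposited FPKM values from Cufflinks 2.2.1, 1 per gene symbol. The annotation and Cufflinks options are not given in the sources used here. The members and lists were chosen with earlier results of these data known. Log2 fold changes used a pseudocount of 0.1 and genes with a value other than 0 in 1 or both libraries. Calls used 2-fold, with 1.5-fold as an alternative. Without replicates no test was run.

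Read numbers were derived from the spacing of low FPKM values in 13861 genes with 1 RefSeq mRNA, with 200 bases taken off the transcript length. Between 71.3% and 72.4% of low values lay within 0.1 of a whole read. The depths were 11000000 fragments for CD and for CD+7KC, 9400000 for WD and 12100000 for WD+7KC. Motifs of 8 bases or fewer, alone or in spaced pairs, were matched as plain letters. Exact 95% intervals cover counting error only and take these depths as known. The code was tested on simulated data.

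Named genes were the 10 members, the highest and lowest gene of each list with 7KC under each diet among those that averaged 1 FPKM or more, and the 3 genes nearest to Hspa5 and to Ddit3. Genes named outside this rule, after their values were seen, were Ern1, Asns, Psat1, Stc2, Atf3, Mthfd2, Tnfrsf10b, Hspa1a, albumin, the cell markers at 0 or that carry a marker sum, the genes that overlap members and the ERSE genes found in the lists. Of the symbols listed, 3 were not matched in the tables. Coordinates came from GENCODE vM21 (GRCm38) and promoters from RefSeq (GRCm38.p6), the build of the files (mm10). Python 3.11.15, numpy 2.4.6, pandas 2.3.3, scipy 1.17.1 and matplotlib 3.10.9 were used.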

Additional observations from a re-analysis of the deposited data

Results flagged for a closer look

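Some genes had opposite signs with 7KC under the diets, and these differences were not tested because each group had 1 library. Hspa5 was at 0.14 under WD and -0.045 under CD on the log2 scale, a difference of 0.19, but its interval under CD included 0 (-0.094 to 0.004). Sdf2l1 was at 0.39 under WD and -0.30 under CD, a difference of 0.68, and its interval under CD also included 0 (-0.63 to 0.034), so the opposite signs are not established for these members. For the immediate early gene Ier3 the values were 1.54 and -1.59, a difference of 3.13, with 2.36 FPKM under CD, 0.717 under CD+7KC, 0.956 under WD and 2.97 under WD+7KC. No counting interval was computed for Ier3, which was below 1 FPKM in CD+7KC and in WD, so its opposite signs are not established either. Rescaling to equal sums gave 0.36 for Hspa5 and 0.86 for Sdf2l1 as the difference between the diets. Members with the same sign under each diet but unequal size included Herpud1, with a difference of -0.39 (-0.21 rescaled). Others were Hsp90b1, with 0.16 (0.34 rescaled), and Trib3, with -0.57 (-0.39 rescaled). Counting intervals of the difference excluded 0 with both scalings for Herpud1, Hsp90b1, Hspa5 and Sdf2l1. They were 0.12 to 0.26 for Hspa5 (0.29 to 0.43 rescaled) and 0.25 to 1.12 for Sdf2l1 (0.43 to 1.29 rescaled). For Creld2, Dnajb9, Xbp1 and Atf4 the intervals excluded 0 only after rescaling, and for Ddit3 they included 0 with both scalings. For Trib3 the rescaled interval included 0 (-0.88 to 0.096).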

How the results depend on the processing

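The counts of members past 2-fold stayed at 0 in each of the 4 comparisons under the pseudocounts of 1 and 0.01, without a pseudocount, with a filter of at least 1 FPKM and under 4 other scalings. With 1.5-fold in place of 2-fold, 1 member, Trib3, was lower in WD+7KC relative to WD (after rescaling to equal sums 0 were lower and 1, Sdf2l1, was higher at 0.60), and 2 were higher and 1 lower in WD+7KC relative to CD+7KC. The median of the members moved in comparisons with WD+7KC: relative to WD it was 0.002 as deposited, 0.22 rescaled to equal sums and 0.18 rescaled without the 20 highest genes, and relative to CD+7KC it was 0.055, 0.26 and 0.25. The median of all genes moved alike, from 0.002 to 0.21 and 0.17 and from 0.003 to 0.20 and 0.19. Of 320 values for single members under an alternative, 295 stayed within their counting interval, and the other 25 arose under these 2 rescalings. Rescaling to equal sums moved 13 and left 27, and rescaling without the 20 highest genes moved 12 and left 28. The filter could not change a member value, and the pseudocounts could change little at these levels, so the total of 295 says little about scaling. Upper-quartile and median-ratio scaling moved none beyond it. Of 160 list medians under another scaling, 40 moved by more than the median counting error of the members, again under these 2 rescalings, each of which moved 20 and left 20. Leaving out a replicate could not be done, and depth limits Ddit3, Trib3 and Sdf2l1 most. No paired analysis was possible because each group had 1 library.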
